A study of Homo sapiens with 6 samples.

Results

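The family of miR-148a, miR-148b and miR-152 was followed in A549 cells with and without plasmid-borne SMARCA4. Its members were chosen by name: every row of the deposited miRNA table called miR-148a, miR-148b or miR-152, on any arm, which gave 6 of the 787 listed mature miRNAs. These were hsa-miR-148a-3p, hsa-miR-148b-3p and hsa-miR-152-3p, and the opposite arms hsa-miR-148a-5p, hsa-miR-148b-5p and hsa-miR-152-5p. The naming rule sets no threshold on a value, but the family was picked with the comparison of SMARCA4 and empty vector already known. Its differences and their adjusted p-values are therefore given as a description and support nothing further. A549, an established line grown from a human lung adenocarcinoma and epithelial in type, lacks functional SMARCA4, the ATPase of the SWI/SNF chromatin remodelling complex also called BRG1. Both groups are transient lipid transfections of this 1 line: 3 libraries came from cells given empty pcDNA4 (empty vector) and 3 from cells given pcDNA4-SMARCA4 (SMARCA4), all with RNA taken at 48 h. No label names the plasmid's promoter or the share of cells that took it up, and the level of SMARCA4 itself was not analysed here.

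A microRNA hairpin is cut by Drosha and Dicer into a short duplex, from which an Argonaute protein mostly keeps one strand, the guide, while the other is mostly degraded. The guide finds messenger RNAs chiefly through its seed, the stretch that follows its first base, and lowers their translation and stability. In this family the 3p arms are the usual guides. They are known for repressing the maintenance DNA methyltransferase DNMT1 and the major histocompatibility gene HLA-G, and they are often silenced or lowered in epithelial tumours.

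The sequences show why the 3p arms count as 1 family and how close their reads are. RefSeq (GRCh38.p14) held the mature sequence of 5 of the 6 members. Capitals mark the seed, bases 2 to 8 counted from the 5′ end.
miR-148a-3p: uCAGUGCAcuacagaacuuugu
miR-148b-3p: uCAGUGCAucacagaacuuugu
miR-152-3p: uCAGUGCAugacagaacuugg
miR-148b-5p: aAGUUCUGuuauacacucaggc
miR-152-5p: aGGUUCUGugauacacuccgacu

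The 3p arms shared 1 seed, CAGUGCA, and in the RefSeq table no other mature miRNA carried it at bases 2 to 8. From miR-148a-3p to miR-148b-3p the substitutions, with positions counted from the 5′ end, were C9U and U10C. From miR-148b-3p to miR-152-3p they were C10G and U20G, with miR-152-3p 1 base shorter (21 against 22 bases). So 20 of 22 compared bases were identical in the first pair and 19 of 21 in the second. No label says how the authors' counting treated reads that match more than 1 of these, and the split between the 3p arms carries that uncertainty. The 5p arms of miR-148b and miR-152 had different seeds, AGUUCUG and GGUUCUG, neither of them the seed of the 3p arms.

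The hairpins, shown because the arms of 1 precursor are compared further on, have their RefSeq mature arms in capitals.
MIR148A: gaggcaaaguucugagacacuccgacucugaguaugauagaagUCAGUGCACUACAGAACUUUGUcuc
MIR148B: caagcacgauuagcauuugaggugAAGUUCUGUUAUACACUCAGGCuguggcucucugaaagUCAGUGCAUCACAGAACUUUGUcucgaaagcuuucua
MIR152: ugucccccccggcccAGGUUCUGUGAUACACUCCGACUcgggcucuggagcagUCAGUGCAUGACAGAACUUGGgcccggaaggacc

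The hairpins lie on 3 chromosomes of GRCh38. MIR148A is at chr7:25949919-25949986 on the minus strand and lay inside no other gene of GENCODE 29; the nearest annotated gene was the lincRNA AC010719.1, 516 bases away, and the nearest protein-coding gene was NFE2L3. MIR148B is at chr12:54337216-54337314 on the plus strand, in an intron of COPZ1 and of the overlapping transcript AC078778.2, both on the same strand. MIR152 is at chr17:48037161-48037247 on the minus strand, in an intron of COPZ2 on the same strand. COPZ1 and COPZ2 are paralogs that encode zeta subunits of the COPI vesicle coat. Each hairpin also has a HOX-cluster miRNA on its chromosome: MIR196B lies 1219 kb from MIR148A, MIR615 lies 303 kb from MIR148B and MIR10A lies 543 kb from MIR152.

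The deposited values are read counts multiplied by 1 factor per library, here called normalized counts, and the reads behind them could be recovered exactly. Recovered totals ranged from 701885 to 1079944 reads in 5 libraries and reached 7274329 in SMARCA4 replicate 2, which was 8.33 times the mean of the others. A count of 3 reads, the limit that a count of 0 allows, was worth 1.27 normalized counts in SMARCA4 replicate 2 and 4.91 to 7.84 in the other libraries, and it covers counting error only. Of 7 epithelial miRNAs (the miR-200 family, miR-203a-3p and miR-205-5p) 6 were listed, and their summed level was 356 to 677 normalized counts with empty vector and 425 to 623 with SMARCA4. Of these, 2 passed the test, miR-141-3p and miR-203a-3p, and rose (limma adjusted p = 0.0124 for each); over all 6, 4 were higher and 2 lower. The most abundant, miR-200b-3p, stood at 422 ± 123 with empty vector and 190 ± 51.8 with SMARCA4 (SD, n = 3 each), with no overlap and a limma adjusted p of 0.109. Of 6 blood-cell miRNAs 2 were listed, with a summed level of 5.71 to 47.1 against 31.7 to 88.9, and of 6 miRNAs of endothelium, muscle, liver and neurons 3 were listed, summing to 145 to 215 and 122 to 210, with the muscle miRNAs miR-1-3p and miR-133a-3p at 0 in every library. The part of any of these in the family's values was not tested. In such bulk RNA, fewer cells of a type and less RNA per cell cannot be told apart.

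Among the 3p arms, on the deposited scale, miR-148b-3p was lower with SMARCA4, miR-152-3p was higher and miR-148a-3p differed little. miR-148a-3p stood at 605, 586 and 718 normalized counts in empty vector replicates 1, 2 and 3 and at 580, 658 and 472 in the SMARCA4 replicates in the same order. The groups overlapped, with means of 636 ± 71.3 and 570 ± 93.4 (SD, n = 3 each) and a log2 difference of -0.17 with an SE of 0.27 (limma adjusted p = 0.745). As a share of the library total the groups did not overlap, at 0.0364%, 0.0330% and 0.0407% with empty vector and 0.0316%, 0.0214% and 0.0260% with SMARCA4. With libraries rescaled to the same total its log2 difference was -0.49 (limma adjusted p = 0.353). miR-148b-3p, the most abundant member, stood at 3087, 2491 and 3354 in empty vector cells and at 1158, 2394 and 1268 in SMARCA4 cells. In normalized counts the groups did not overlap, but SMARCA4 replicate 2 came close to empty vector replicate 2 while the other SMARCA4 libraries were far below. The means were 2977 ± 441 and 1607 ± 684 (SD, n = 3 each), so 1.85-fold lower with SMARCA4 (log2 difference -0.96 with an SE of 0.33, limma adjusted p = 0.129). As a share of the library total miR-148b-3p stood at 0.1857%, 0.1403% and 0.1899% with empty vector and 0.0631%, 0.0779% and 0.0699% with SMARCA4. By that share SMARCA4 replicate 2 lay near the other SMARCA4 libraries and far below every empty vector library. miR-152-3p stood at 168, 137 and 155 with empty vector and at 277, 316 and 262 with SMARCA4. All SMARCA4 libraries were above all empty vector libraries, with means of 153 ± 15.5 and 285 ± 28.1 (SD, n = 3 each), so 1.86-fold higher with SMARCA4 (log2 difference 0.89 with an SE of 0.29, limma adjusted p = 0.110). As a share of the library total the gap was narrow, with 0.0103% in SMARCA4 replicate 2 against 0.0101% in empty vector replicate 1.

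**Figure D1:**
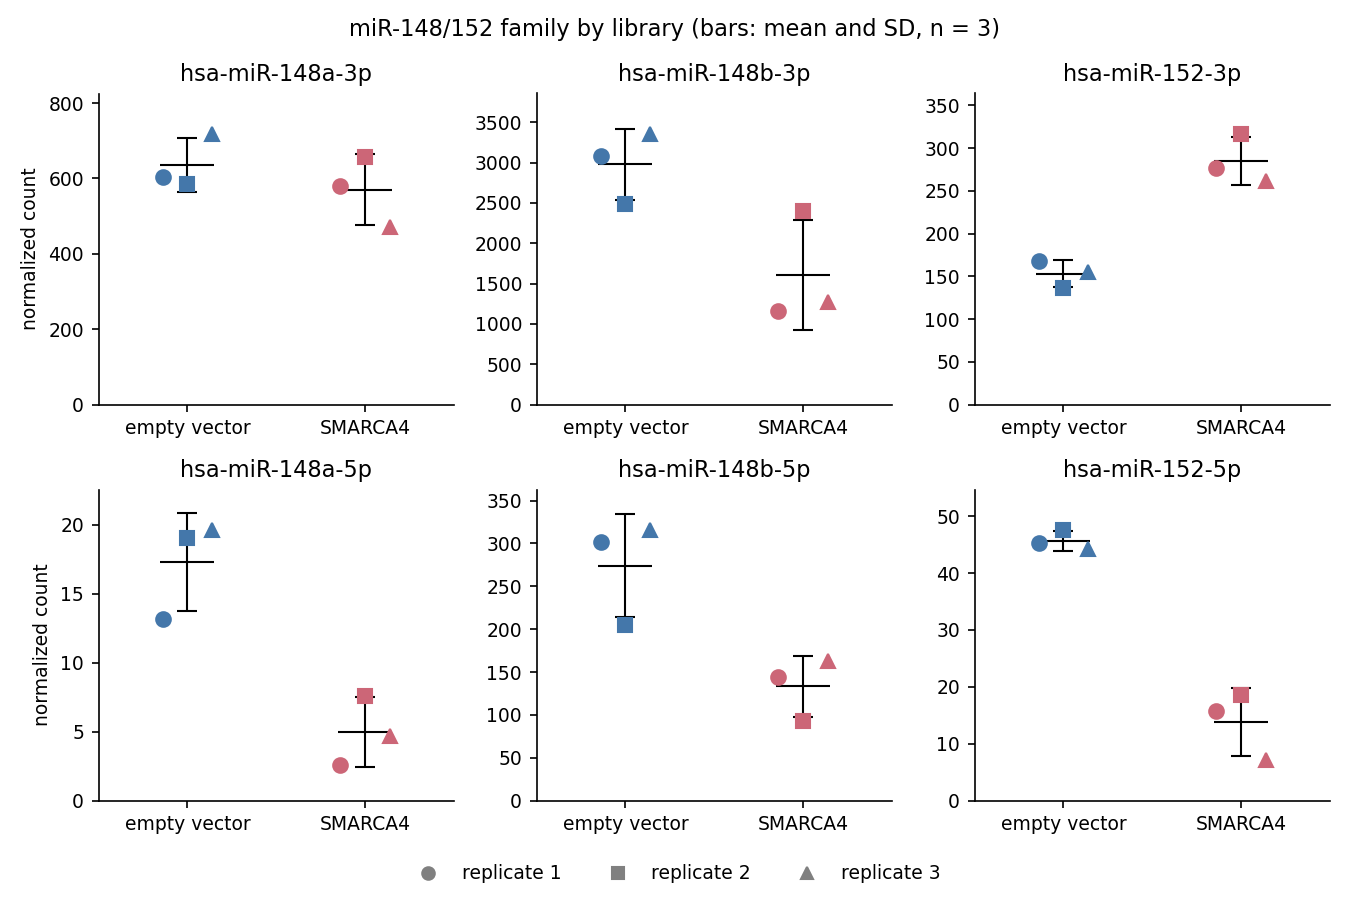
Normalized count (y axis, linear from 0) of each family member in the 6 libraries, with the mean and SD of each group of 3 as black bars and the marker shape giving the replicate. On this scale miR-152-3p is the only member higher with SMARCA4 and miR-148a-3p overlaps between groups. The other 4 are lower in every SMARCA4 library than in any empty vector library.

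The 5p arms, the usual passenger strands of these hairpins, were all lower with SMARCA4. miR-148b-5p stood at 302, 205 and 316 normalized counts in empty vector cells and at 144, 93.4 and 163 in SMARCA4 cells. Here SMARCA4 replicate 2 was the lowest library, whereas it was the highest SMARCA4 library for the 3p arm of the same hairpin. The means were 274 ± 60.0 and 133 ± 35.9 (SD, n = 3 each), so 2.06-fold lower with SMARCA4 (log2 difference -1.05 with an SE of 0.35, limma adjusted p = 0.114). miR-152-5p stood at 45.3, 47.5 and 44.1 normalized counts with empty vector and at 15.7, 18.6 and 7.08 with SMARCA4. In reads these were 24, 25 and 27 against 6, 44 and 3, so the lowest value sits at the 3-read limit. The means were 45.6 ± 1.73 and 13.8 ± 5.98 (SD, n = 3 each), so 3.31-fold lower with SMARCA4 (log2 difference -1.75 with an SE of 0.47, limma adjusted p = 0.0830). miR-148a-5p was the scarcest member, at 13.2, 19.0 and 19.6 against 2.61, 7.60 and 4.72 normalized counts. These rest on 7, 10 and 12 reads against 1, 18 and 2, and the values of SMARCA4 replicates 1 and 3 lie under the 3-read limit of their libraries. Its log2 difference was -1.68 with an SE of 0.54 (limma adjusted p = 0.110), and it shrank to -1.18 with a pseudocount of 5.

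All 6 members entered the test over 637 miRNAs, and 0 passed it (limma, Benjamini-Hochberg adjusted p under 0.05), where 1.41% of all tested miRNAs passed. An unadjusted p under 0.05 was reached by 5 of the 6 members and by 22.6% of all tested miRNAs. edgeR and DESeq2, run on the recovered reads, also passed 0 members, though DESeq2 gave no adjusted p for miR-148a-5p. On the deposited scale the groups did not overlap for 5 of the 6 members, against 31.1% of all tested miRNAs. The log2 fold change had a median of -1.0 over the members, 5 of them lower and 1 higher. Over every tested miRNA its median was -0.05, with 329 lower and 308 higher. The members come from 3 hairpins, so they are not 6 independent items.

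**Figure D2:**
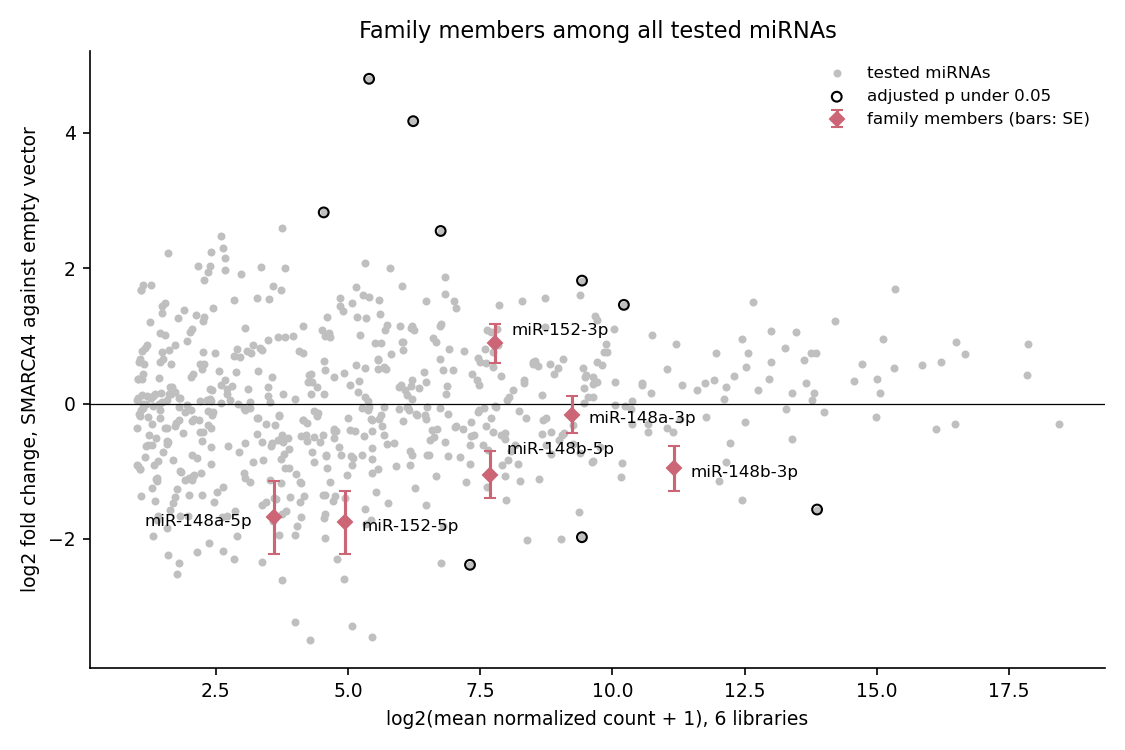
Log2 fold change with SMARCA4 (y axis) against log2(mean normalized count + 1) over the 6 libraries (x axis) for 637 tested miRNAs in grey, the 9 past the threshold circled, and the 6 family members as diamonds with their SE. The members lie within the cloud of other miRNAs, from -1.75 for miR-152-5p to 0.89 for miR-152-3p.

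The balance of arms within a hairpin does not depend on how a library is scaled, and it differed most for miR-152. For each read of miR-152-5p the empty vector libraries held 3.71, 2.88 and 3.52 reads of miR-152-3p, and the SMARCA4 libraries held 17.7, 17.0 and 37.0. Every SMARCA4 library was above every empty vector library, and the mean log2 ratio of 3p to 5p went from 1.74 ± 0.19 to 4.48 ± 0.63 (SD, n = 3 each), a difference of 2.74. For miR-148a the ratio of 3p to 5p was 45.9, 30.8 and 36.6 with empty vector and was higher in every SMARCA4 library, where 222, 1558 and 200 reads of the 3p arm stood beside 1, 18 and 2 reads of the 5p arm. The mean log2 ratio went from 5.22 ± 0.29 to 6.96 ± 0.73 (SD, n = 3 each), a difference of 1.74 that rests on very few 5p reads. For miR-148b the ratio was 10.2, 12.1 and 10.6 against 8.05, 25.6 and 7.78. It overlapped between groups, with a difference of 0.10 that turned to -0.47 without SMARCA4 replicate 2, the 1 SMARCA4 library above the empty vector range. Counting the 3p ratios given further on, 5 such ratios were compared, and every one except that of miR-148b gave an exact two-sided permutation p of 0.1, the smallest that 3 against 3 libraries allow (0.125 after adjustment over the 5). That of miR-148b gave p = 1 in the same exact permutation test. For miR-152 the smallest p was fixed beforehand, since its 3p arm was higher and its 5p arm lower in every SMARCA4 library.

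Lower levels of the less abundant arm were common in these libraries. Of 97 hairpins with both arms at a mean of at least 10 normalized counts, 68 (70.1%) had a negative log2 fold change on the less abundant arm, with a median of -0.42, and 42 (43.3%) on the more abundant arm, with a median of 0.24. The arms of 1 hairpin had opposite signs in 56 of the 97. When libraries were rescaled to the same total, 79 of the less abundant and 51 of the more abundant arms were lower. With the 97 hairpins ordered from the largest shift toward the 3p arm to the largest toward the 5p arm, computed with 1 added to each value, miR-152 stood at place 3 (log2 ratio higher by 2.65), miR-148a at place 9 (1.52) and miR-148b at place 46 (0.09). By absolute size, whichever arm was favoured, they stood at places 6, 29 and 93. The part of this wider pattern in the values of miR-152 and miR-148a was not tested.

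**Figure D3:**
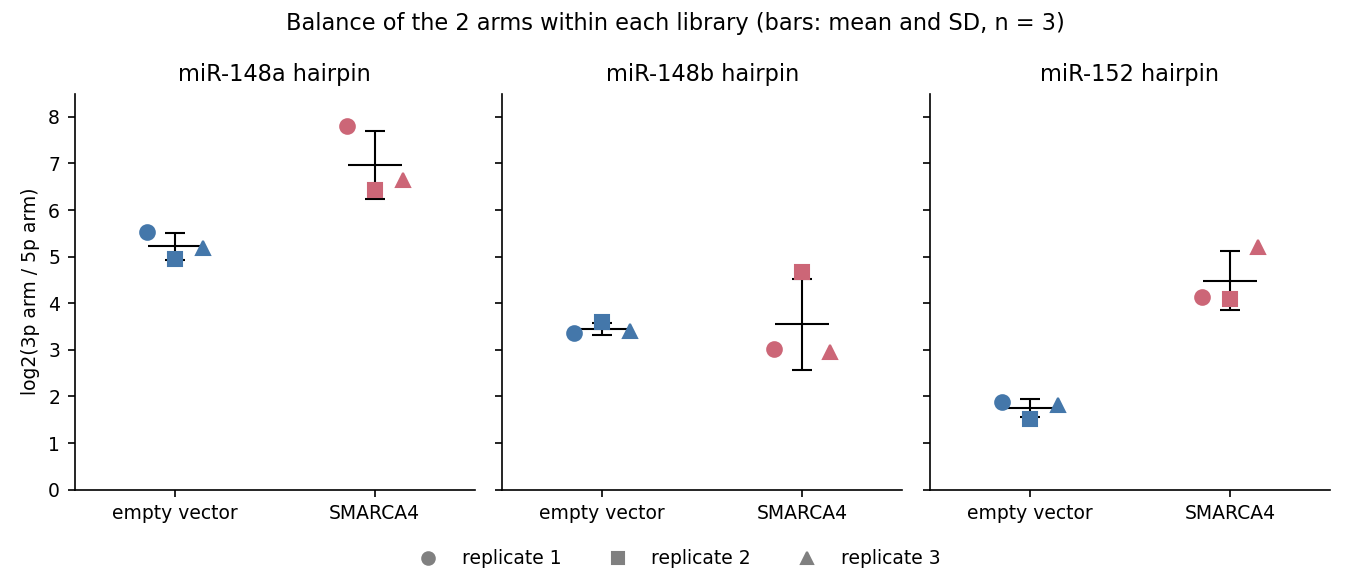
Log2 of the 3p arm over the 5p arm (y axis) for the 3 hairpins in each library, with mean and SD of each group of 3 as black bars and marker shape giving the replicate. The SMARCA4 libraries sit above all empty vector libraries for miR-148a and miR-152, and on both sides of them for miR-148b.

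The 3p arms together took up a smaller share of the library total with SMARCA4, and their make-up differed. Their summed level was 3860, 3214 and 4227 normalized counts with empty vector and 2016, 3369 and 2002 with SMARCA4, so SMARCA4 replicate 2 overlapped the empty vector range. As a share of the deposited total the sum was 0.232%, 0.181% and 0.239% with empty vector and 0.110%, 0.110% and 0.110% with SMARCA4, with no overlap. These scales differ because the deposited total of SMARCA4 replicate 2 was the largest of the 6. miR-148b-3p made up 80.0%, 77.5% and 79.3% of the sum with empty vector and 57.5%, 71.1% and 63.3% with SMARCA4. miR-148a-3p made up 15.7%, 18.2% and 17.0% against 28.8%, 19.5% and 23.6%, and miR-152-3p made up 4.35%, 4.26% and 3.68% against 13.7%, 9.39% and 13.1%. None of these shares overlapped between groups, and SMARCA4 replicate 2 was nearest to the empty vector libraries for each. Shares are tied to each other, so a smaller part of 1 member raises the others.

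**Figure D4:**
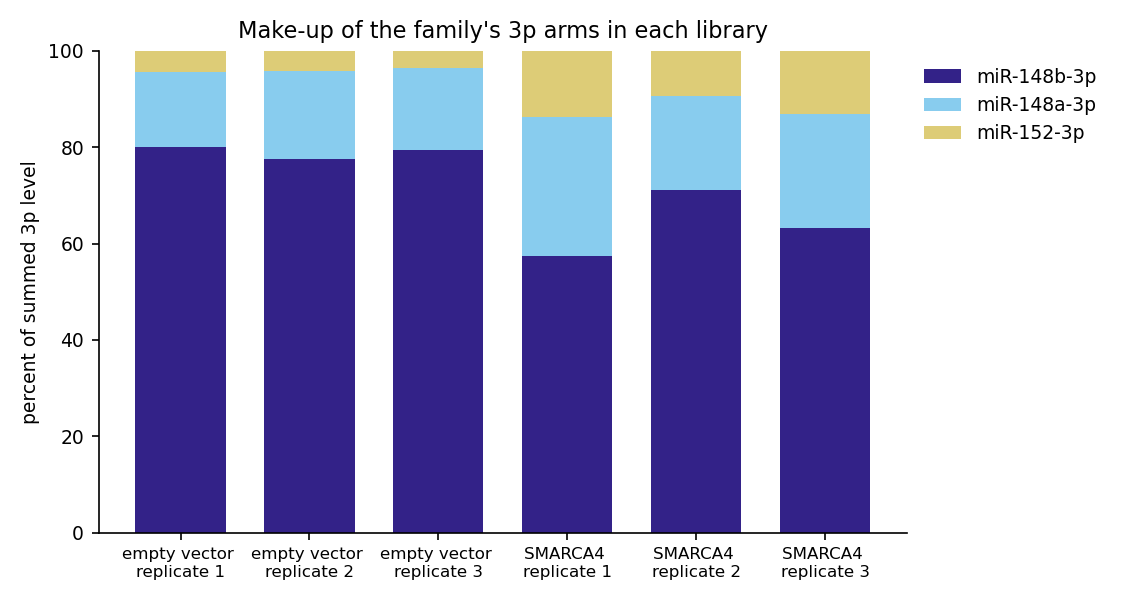
Percent of the summed normalized count of the 3p arms (y axis, 0 to 100) taken by each member in each of the 6 libraries (x axis). miR-148b-3p fills 77.5% or more of each empty vector bar and 71.1% or less of each SMARCA4 bar, while miR-152-3p goes from at most 4.35% to at least 9.39%.

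The pairwise ratios give the same comparison free of the total. The ratio of miR-148a-3p to miR-152-3p was 3.61, 4.28 and 4.62 in the empty vector libraries and 2.09, 2.08 and 1.80 in the SMARCA4 libraries, a difference of -1.06 in mean log2 ratio. The ratio of miR-148a-3p to miR-148b-3p was 0.196, 0.235 and 0.214 against 0.501, 0.275 and 0.372, a difference of 0.79. Neither overlapped between groups. These ratios show that the 3p arms differed unequally, not which of them stayed level.

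In normalized counts per mature miRNA of nearly equal length, the order of levels in empty vector cells was miR-148b-3p, miR-148a-3p, miR-148b-5p, miR-152-3p, miR-152-5p and miR-148a-5p, and no neighbours in that order overlapped. In SMARCA4 cells miR-152-3p stood above miR-148b-5p, at 2.14 times its mean, whereas with empty vector the mean of miR-148b-5p was 1.79 times that of miR-152-3p. There the scarcest pair, miR-152-5p and miR-148a-5p, overlapped. Among all 787 listed miRNAs miR-148b-3p ranked 50 with empty vector and 64 with SMARCA4, miR-148a-3p 95 and 101, and miR-152-3p 173 and 134. Adapter ligation differs between sequences, so levels of different miRNAs compare less well than levels of 1 miRNA between libraries.

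The stretch CAGUGCA also opens, at base 1, members of the family of miR-130 and miR-301, whose seed is therefore offset by 1 base. One is shown, with its own seed in capitals.
miR-301a-3p: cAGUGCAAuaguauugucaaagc

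RefSeq held a sequence for 689 of the 787 miRNAs listed here, so a miRNA not found in this search may still carry the stretch. The RefSeq table held 5 miRNAs with CAGUGCA at bases 1 to 7, of which miR-130b-3p, miR-301a-3p and miR-301b-3p were listed here. Of these and their relatives miR-130a-3p and miR-454-3p, 0 of 5 passed the test. All 5 had a positive log2 fold change (median 0.44), against 308 of all 637 tested miRNAs. However, miR-301a-3p and miR-301b-3p turned negative with libraries rescaled to the same total, and miR-301a-3p with quantile normalization. The most abundant were miR-130a-3p, at 1143 ± 31.2 normalized counts with empty vector and 2317 ± 250 with SMARCA4 (limma adjusted p = 0.0656), and miR-301a-3p, at 719 ± 60.5 and 774 ± 63.4 (limma adjusted p = 0.842; SD, n = 3 throughout). miR-152-3p thus had the sign of this family's values and miR-148b-3p the opposite one.

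Of 8 other miRNAs reported to target DNA methyltransferases 0 passed, 1 was higher and 7 were lower (median -0.21 on the log2 scale). Of all 637 tested miRNAs 308 were higher and 329 lower (median -0.05). miR-29a-3p, which targets DNMT3A and DNMT3B, stood at 6337 ± 2170 normalized counts with empty vector and 5260 ± 1772 with SMARCA4 (limma adjusted p = 0.705), and miR-101-3p, known for targeting EZH2, at 2345 ± 573 and 1826 ± 421 (limma adjusted p = 0.483; SD, n = 3 throughout). No messenger RNA was measured in these libraries, so DNMT1 and other targets were not analysed here.

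Of 5 HOX-cluster miRNAs 0 passed, with miR-10b-5p the one encoded on a chromosome that holds no family hairpin. Of the 5, 4 were higher and 1 was lower (median log2 fold change 1.22), against 308 higher and 329 lower of all 637 tested. miR-10a-5p, which lies on the chromosome of miR-152, stood at 65725 ± 19824 normalized counts with empty vector and 120156 ± 9143 with SMARCA4 (limma adjusted p = 0.124), and miR-10b-5p at 11347 ± 2503 and 26564 ± 6429 (limma adjusted p = 0.0656; SD, n = 3 throughout). miR-615-3p, which lies on the chromosome of miR-148b, was the lower one, at 34.9 ± 10.9 with empty vector and 21.5 ± 11.3 with SMARCA4 (limma adjusted p = 0.411; SD, n = 3 throughout).

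Likeness of pattern was described by Pearson's r of log2(value + 1) over the 6 libraries, among 421 miRNAs with a mean of at least 10. Closest to miR-148a-3p were miR-671-3p (r = 0.970), miR-625-5p (0.919) and miR-584-5p (0.898). Closest to miR-148b-3p were miR-100-3p (0.973), let-7a-3p (0.964) and miR-7974 (0.946). Closest to miR-152-3p were miR-4746-5p (0.985), miR-873-5p (0.985) and miR-130a-3p (0.984). None of these closest 3 was a member of the family. The 6 points fall into the 2 groups of the design and share libraries and scaling, so any miRNA that separates the groups correlates with another that does. miR-148a-3p overlaps between groups in normalized counts. For it too, the highest correlations picked from so many miRNAs over 6 points can be large without any relation.

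Over 18 alternative settings (other processing, or 1 library left out) no member changed sign, but the calls moved. Without SMARCA4 replicate 2, miR-148b-3p and miR-152-5p passed (log2 differences of -1.28 and -2.01, limma adjusted p = 0.0132 and 0.0462), at a background of 6.44% of tested miRNAs. With limma's array weights, which give less weight to libraries that deviate more, every member except miR-148a-3p passed (limma adjusted p = 0.00808 to 0.0442), at a background of 14.1%. With no filter on low values miR-152-3p passed (limma adjusted p = 0.0376; background 2.92%), and with libraries rescaled to the same total miR-148b-3p passed (limma adjusted p = 0.0487; background 1.88%). That rescaling shifted the median over every tested miRNA by -0.26 on the log2 scale. miR-152-3p then stood at 0.57 in place of 0.89 (limma adjusted p = 0.339). miR-148a-3p passed in no setting, with log2 fold changes from -0.49 to -0.04.

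**Figure D5:**
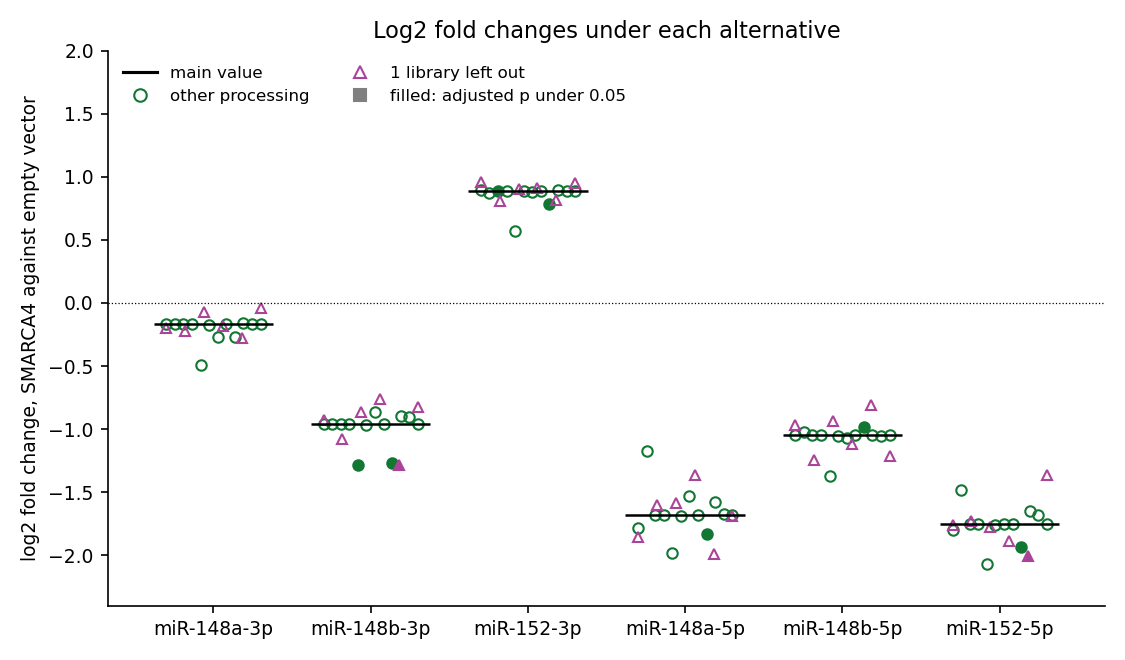
Log2 fold change with SMARCA4 (y axis) of each member under the main analysis (black line), other processing (circles) and with 1 library left out (triangles), filled where the adjusted p was under 0.05. No member crosses 0, and the values of miR-148b-3p reach from -1.28 to -0.76.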

How the data were processed

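Small RNA libraries of A549 cells were sequenced by the authors, 3 per group, 48 h after transfection, using Illumina's TruSeq kit for small RNA, per the labels' protocols. The submitters' processing notes name bcl2fastq 2.18.0.12 and GRCh38; for the aligner, counter and miRNA annotation the sources used here give nothing. The deposited table, whose name speaks of TMM, holds 1 normalized signal for each mature miRNA and library. All values (100%) were whole multiples of 1 step per library within 1e-06 reads, which gave the reads. Groups came from sample titles, and the replicates are called independent in the design text. All pairs of libraries differed by more than sampling noise (lowest chi-square per degree of freedom 6.61).

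The test was limma 3.58.1 in R 4.3.3 (empirical Bayes with a trend) on log2(value + 1), which understates changes of scarce miRNAs, over 637 miRNAs with a mean of at least 1, with Benjamini-Hochberg adjustment over all of them and a threshold of 0.05. This test had been planned for normalized values and was kept. As alternatives the recovered reads were fitted with edgeR 4.0.16 and DESeq2 1.42.0, and the fits were tested on simulated data. The simulation gave every miRNA the same dispersion and made no library deviate. It therefore does not show how the fits handle a library such as SMARCA4 replicate 2. Ratios were compared with exact permutation tests (scipy 1.17.1). Sums and shares over members got no test. The arm ratios of miR-148a and miR-148b were added after seeing the data. Sequences come from RefSeq and host genes from GENCODE 29, both on GRCh38, and the table itself holds no coordinates. Members, lists and alternatives were chosen with earlier results of these data known. Named miRNAs were all members, per list those that passed or else the 2 most abundant, and per 3p arm the 3 most alike; miR-615-3p, miR-301b-3p and miR-200b-3p were also named after their values were seen.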

Additional observations from a re-analysis of the deposited data

How the results depend on the processing

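Over all tested miRNAs 9 passed. The number was 23 with no filter, 90 with array weights and 47 with DESeq2, which left 237 adjusted p-values undefined, and between 0 and 41 with 1 library left out, where limma passed 0 on dropping replicate 1 of either group (103 at an unadjusted p under 0.05 for empty vector, 119 for SMARCA4). Dropping SMARCA4 replicate 3 left 1, dropping replicate 3 of the empty vector group left 2, and dropping SMARCA4 replicate 2 gave the 41. edgeR passed 8. The cause of these differences was not tested. With libraries rescaled to the same total the calls split into 4 higher and 8 lower, against 6 and 3, and the summed 3p level differed by -2138 normalized counts in place of -1305 (between -1758 and -1074 with 1 library left out). The arm ratio of miR-148b ranged from -0.47 without SMARCA4 replicate 2 to 0.39 without SMARCA4 replicate 3. No other ratio or share changed direction under any alternative tried. Over all tested miRNAs, deviations of same-numbered libraries from their group means correlated weakly (0.07, 0.09 and 0.01). Scarce miRNAs weigh as much as abundant ones there, so this does not settle whether the numbers pair libraries. Replicate 2 was the lowest library of both groups for miR-148b-5p, but the lowest and the highest for miR-148b-3p. With a replicate block 13 miRNAs and 0 members passed, and 172 miRNAs had an unadjusted limma p under 0.05, against 144 without. The SE of miR-148b-5p was 0.24 with the block and 0.35 without, and every other member's SE was also smaller. In the exact sign-flip test every ratio except the arm ratio of miR-148b gave p = 0.25, the smallest that 3 pairs allow. Few reads limit the 5p arms of miR-148a and miR-152.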
